A study of Mus musculus with 16 samples.

Results

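The genes described here are the insulin-like growth factor (IGF) genes of the mouse mammary gland, 9 of the 17721 genes in the deposited table: 6 IGF binding proteins (*Igfbp2*, *Igfbp3*, *Igfbp4*, *Igfbp5*, *Igfbp6* and *Igfbp7*), both ligands (*Igf1* and *Igf2*) and the receptor (*Igf1r*). They were chosen by name, and all 9 were in the table. IGF1 and IGF2 are secreted growth factors that act through the tyrosine kinase encoded by *Igf1r*. The binding proteins hold the ligands in the extracellular space, which can prolong their life or keep them from the receptor, and some also act on cells without IGF. In the pubertal gland, IGF1 made in the stroma under growth hormone is known to be needed for the outgrowth of the ducts.

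Single nipple (n = 4), duct (n = 6) and terminal end bud (TEB, the growing tip of a duct; n = 6) fragments were dissected from *K14-Cre/R26-mTmG* mice 5 weeks old on the C57BL/6 background. Their single cells were sorted into the wells of plates. The plate of each fragment is not given, so differences between locations and between plates cannot be told apart. In all of these mice the promoter of keratin 14, active in basal epithelium, drives Cre and switches a membrane reporter. Which mouse each fragment came from is not given in the sources used here, so p-values measure the spread between fragments, some of which may share a mouse. The 3' end of each transcript was counted with unique molecular identifiers (UMIs), so that 1 count stands for 1 captured molecule whatever the length of the transcript.

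Of 1419 cells, 1317 passed the study's limits, and they fell into 11 clusters. The IGF genes and their pathway were left out of the genes used for clustering, so that they did not define the classes. By markers, 294 cells were basal-like (the outer, contractile layer of the epithelium), 425 ER+ luminal-like and 179 ER- luminal-like (the inner layer, with and without markers of estrogen receptor cells), 252 fibroblast-like, 78 myeloid-like and 19 pericyte-like, and 70 stayed unnamed with mast cell and endothelial genes among their leading genes. All 10 basal, all 8 fibroblast and all 9 myeloid markers were highest in their own class, as were 7 of 10 ER+ and 9 of 10 ER- markers. All but 1 of the nipple and duct basal cells lay in one cluster (median 22149 UMIs per cell). Of the 83 cells of the other basal cluster (median 43797), 82 were TEB cells and 1 was a nipple cell. The 95 well barcodes were each found in more than 1 fragment. For each fragment, the raw counts of a class were added up where it held at least 5 cells, and levels are given as CPM, the UMIs of a gene scaled to a fixed total of UMIs without spike-ins. RNA from other wells of a plate can be counted in a cell, and an estimate of such UMIs is given where it matters.

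Across the epithelial and fibroblast-like classes, the binding proteins and the receptor were highest in basal-like or fibroblast-like cells, and the ligands in fibroblast-like cells. Both luminal classes had little of them, except for *Igfbp5* in ER- luminal-like cells. In fits with the fragment as a block (edgeR, Benjamini-Hochberg adjustment, threshold 0.05), all 9 genes separated basal-like cells from the ER+ luminal class, with 8 higher in basal-like cells, where 40.5% of all genes tested differed. Against ER- luminal-like cells 8 of 9 were higher in basal-like cells, where 25.1% of all genes differed. *Igf1* is among the 8 in both comparisons, although its 43 basal UMIs over all locations were no more than the 44.4 expected from other wells. Fibroblast-like cells were higher than the mean of the 3 epithelial classes for 8 of 9 (48.6% of all genes differed), with *Igfbp5* as the exception (log2 difference 0.41, SE 0.60, adjusted p = 0.599, edgeR). Of these 8, basal-like cells alone had more than fibroblast-like cells for *Igfbp2* in 13 of 13 fragments, *Igfbp3* in 10 and *Igf1r* in 9. The classes were themselves defined by expression, so these tests describe classes and do not show that they are separate.

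**Figure D1:**
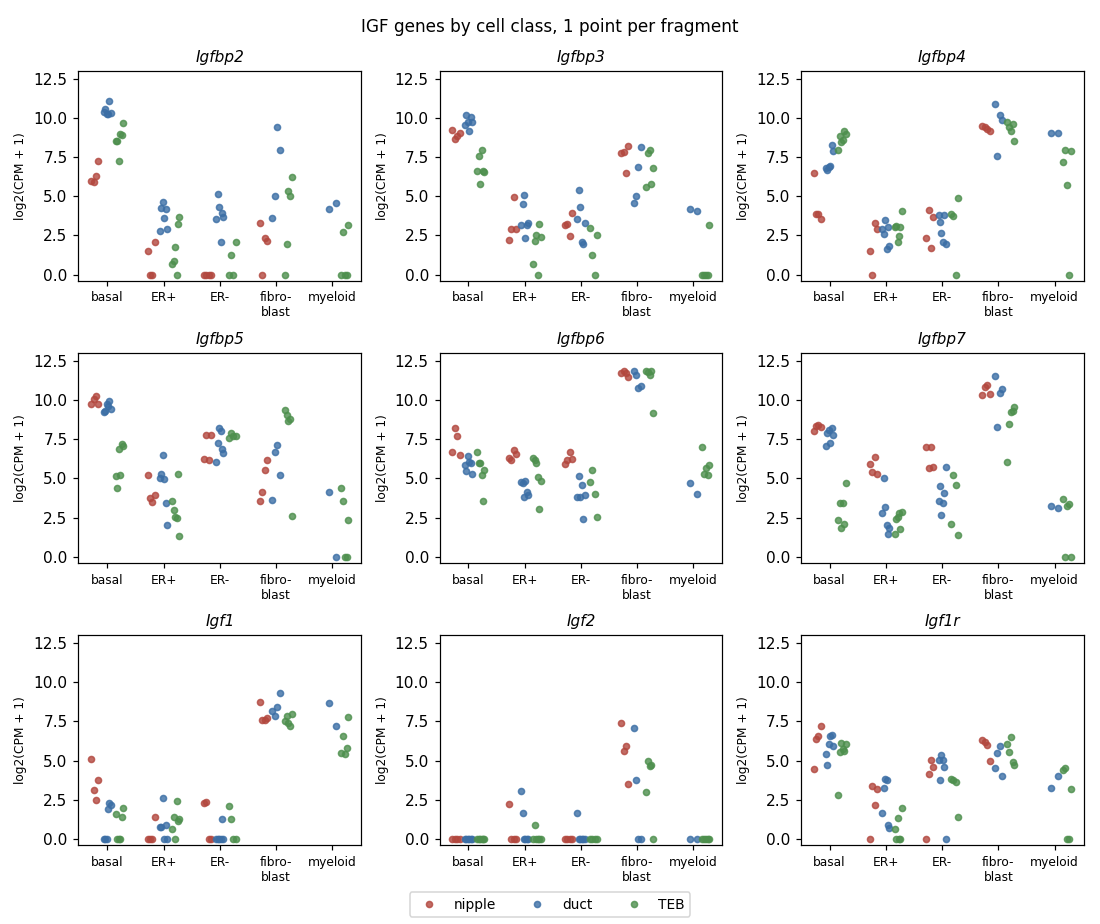
Level of each IGF gene, log2(CPM + 1), in 5 cell classes, with 1 point for each fragment that held at least 5 cells of the class (red nipple, blue duct, green TEB). *Igf1*, *Igf2* and *Igfbp6* were highest in fibroblast-like cells, *Igfbp2* in basal-like cells, and *Igfbp5* was the member with clear levels in ER- luminal-like cells.

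*Igfbp2* (chr1:72824503-72852474, plus strand, GRCm38) had a median of 485 CPM over the 16 basal-like sums (58.3 to 2125). It was higher in basal-like than in ER+ luminal-like cells in 16 of 16 fragments and higher than in fibroblast-like cells in 13 of 13. Other wells were expected to give more UMIs than were counted in the ER+ (311 against 135) and ER- luminal classes (57.5 against 41). *Igfbp3* (chr11:7206086-7213923, minus strand), the main carrier of IGF in serum, had a median of 482 CPM in basal-like (53.6 to 1148) and 116 in fibroblast-like cells (22.3 to 287).

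*Igfbp4* (chr11:99041244-99054392, plus strand) had medians of 686 CPM in fibroblast-like (189 to 1919), 239 in myeloid-like (0 to 529, n = 7) and 179 in basal-like cells (10.7 to 582). Fibroblast-like cells held more of it than basal-like cells in 12 of 13 fragments. *Igfbp6* (chr15:102144362-102149511, plus strand), which prefers IGF2 as its ligand, was the most fibroblast-bound of the binding proteins, with 3327 CPM in fibroblast-like cells (median, 572 to 3741) and 62.5 in basal-like cells (10.7 to 299). Of its 728 basal UMIs, 379 were expected from other wells. *Igfbp7* (chr5:77349240-77408041, minus strand), which binds IGFs weakly and is known from vessel walls, had medians of 1266 CPM in fibroblast-like (64.7 to 2923) and 183 in basal-like cells (2.55 to 341). Its highest pooled level was in the pericyte-like cluster, with 3701 CPM and at least 10 UMIs in 94.7% of the 19 cells. *Gm34648* and *Polr2b* overlap *Igfbp7* on the other strand, and whether the counting used strand is not given.

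*Igfbp5* (chr1:72857932-72874884, minus strand), known from the regressing gland after weaning, was the binding protein with a luminal signal. It had medians of 656 CPM in basal-like (19.8 to 1199), 197 in ER- luminal-like (64.2 to 301.2) and, for the ER+ class, 11.6 (1.46 to 90.1). It was higher in ER- than in ER+ luminal-like cells in 14 of 14 fragments (log2 difference of ER+ minus ER- -2.98, SE 0.62, adjusted p = 2.01e-04, edgeR). Of its 974 ER- UMIs, 65.3 were expected from other wells. Basal-like cells held more of it than ER- luminal-like cells in 10 of 14 fragments, and in the other 4, all from TEB, the order was turned.

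The receptor had the same order among the epithelial classes. *Igf1r* (chr7:67952827-68233668, plus strand) had medians of 62.3 CPM in basal-like (6.11 to 145), 46.5 in fibroblast-like (15.6 to 90.9), 15.1 in ER- luminal-like (0 to 40.0) and, for the ER+ class, 1.89 (0 to 13.2). The log2 difference of ER+ minus ER- luminal-like cells was -2.13 (SE 0.48, adjusted p = 4.04e-04, edgeR). *Igf1r* and *Igfbp5* were the 2 of 9 members that differed between the luminal classes, where 23.4% of all genes did. The ranges of *Igf1r* in basal-like and fibroblast-like cells overlapped, and 9 of 13 fragments had more in basal-like cells.

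The ligands were found mainly in stromal classes. *Igf1* (chr10:87858265-87937042, plus strand) had a median of 228 CPM in fibroblast-like cells (149 to 624, n = 13) and 92.7 in myeloid-like cells (42.4 to 403, n = 7). Its medians were 2.43 CPM in basal-like and 0.720 in ER+ luminal-like cells, and its 43 basal UMIs were in total no more than the 44.4 expected from other wells. By location, 32 were counted and 17.8 expected in nipple, 5 and 12.7 in duct, and 6 and 13.9 in TEB. Of the 32 nipple UMIs, 18 were in N21. The antisense gene *Igf1os* overlaps it. *Igf2* (chr7:142650766-142666816, minus strand) had a median of 24.2 CPM in fibroblast-like cells (0 to 170). It had 0 UMIs in 8801894 basal UMIs, which allows a level of up to 0.341 CPM, while 7.12 UMIs were expected from other wells. It also had 16 UMIs in ER+ luminal-like cells (13.6 expected), in 4 of 16 fragments, so the difference of basal minus ER+ (log2 -1.71, adjusted p = 0.0261, edgeR) rests on 16 UMIs. The gene is overlapped on its strand by *Gm49394*, and its counts are uncertain for that reason.

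Within basal-like cells the binding proteins differed by location, and the receptor did not pass the test in any pair. Of the 7 members with enough counts to test, 6 differed between nipple and TEB, where 18.8% of all genes tested did. For nipple against duct it was 3 of 7, where 6.33% of all genes did, and for duct against TEB 4 of 7, where 10.5% did. The median log2 difference of the 7 was 1.92, 0.42 and 1.85 in these pairs, against -0.04, -0.03 and -0.04 over all genes. The fragments did not overlap for 5 of 6, 3 of 3 and 4 of 4 of the called members. They cover only members already called, so they are not separate evidence. The same share over all genes was not counted, so these counts describe the members only. Nipple and duct cells shared a cluster that TEB cells did not. Without regression before clustering, however, the basal-like class held 197 rather than 294 cells, and nipple could not be compared. The study also describes basal subclusters tied to each location. A change of level and a change of cell state therefore cannot be told apart in any pair. All 3 pairs share fragments.

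**Figure D2:**
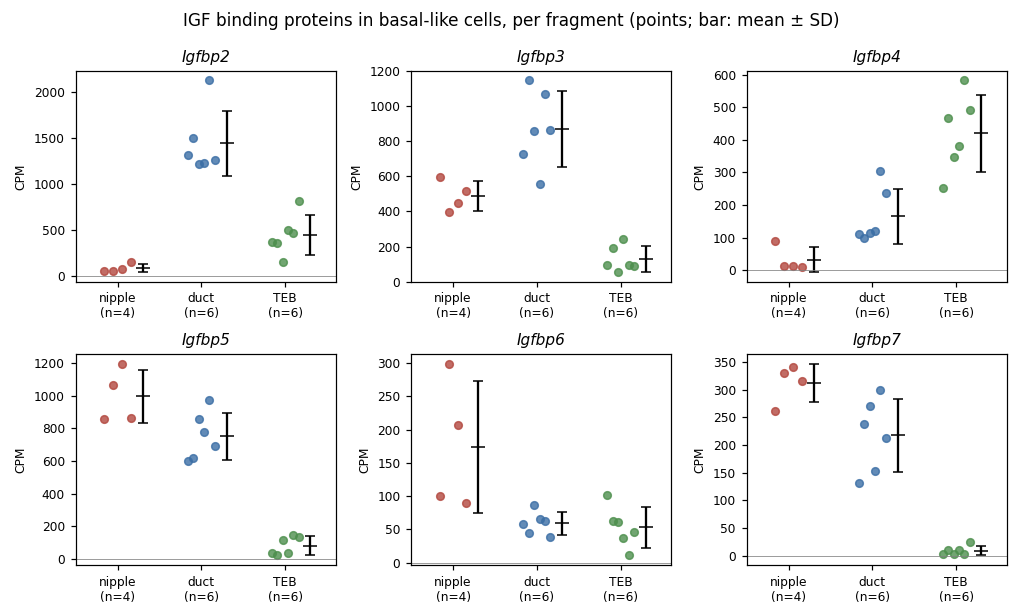
CPM of the 6 *Igfbp* genes in basal-like cells by location, with 1 point per fragment and the mean ± SD beside it. *Igfbp2* peaked in duct, *Igfbp4* in TEB, and *Igfbp3*, *Igfbp5* and *Igfbp7* were low in TEB.

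*Igfbp2* was the duct gene of the family. The nipple fragments had 58.3, 60.3, 75.6 and 152 CPM. The duct fragments had 1213 to 2125 CPM (median 1288) and the TEB fragments 153 to 810.5 (median 420.3). Every duct fragment was above every TEB fragment, and every TEB fragment above every nipple fragment. The log2 difference was -4.04 for nipple minus duct (SE 0.46, adjusted p = 7.77e-05), 1.85 for duct minus TEB (SE 0.34, adjusted p = 0.00192) and -2.19 for nipple minus TEB (SE 0.43, adjusted p = 0.00202, all edgeR). In cells thinned to 5000 UMIs each, 88.7% of duct, 73.2% of TEB and 18.6% of nipple basal-like cells had a UMI of it, against 3.76% of ER+ luminal-like cells. The study itself names *Igfbp2* as a duct gene from these samples, so its location here is not independent evidence. It also reports real-time PCR of its location signature genes in TEB, duct and nipple basal cells, with patterns like those of the sequencing.

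*Igfbp4* ran towards the TEB. The nipple fragments had 10.7, 13.8 (in 2 fragments) and 88.6 CPM, the duct fragments 99.5 to 305 (median 118) and the TEB fragments 251 to 582 (median 423). Nipple lay below both other locations without overlap, and the highest duct fragment (D61) lay above the lowest TEB fragment. The log2 difference was -3.55 for nipple minus TEB (SE 0.55, adjusted p = 1.15e-04, edgeR) and -2.39 for nipple minus duct (SE 0.54, adjusted p = 0.00994, edgeR). Between duct and TEB it was -1.15 (SE 0.41, adjusted p = 0.0844, edgeR), and it passed the threshold in 6 of 12 other settings. The UMIs expected from other wells were 45.1 of the 68 in nipple. The TEB cluster, which also held 1 nipple cell, had 1770 UMIs, of which its TEB cells gave 1728. Most of the 68 nipple UMIs thus lay in that cell. It came from N21 (47 UMIs), as no other nipple fragment had more than 9.

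*Igfbp5*, *Igfbp7* and *Igfbp3* were lower in TEB than in both other locations. For *Igfbp5* the nipple fragments had 856, 867, 1065 and 1199 CPM, the duct fragments 598 to 972 (median 734) and the TEB fragments 19.8 to 144 (median 76.9). Nipple and duct overlapped (log2 difference 0.42, SE 0.37, adjusted p = 0.646, edgeR), and both lay above TEB (log2 difference 3.71, SE 0.40, adjusted p = 6.87e-06 for nipple, and 3.29, SE 0.38, adjusted p = 1.85e-05 for duct, edgeR).

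For *Igfbp7* the nipple fragments had 262, 315, 330 and 341 CPM, the duct fragments 132 to 299 (median 226) and the TEB fragments 2.55 to 25.1 (median 6.99). TEB was below every other fragment, and nipple and duct overlapped. This was the largest called location difference of a member, with log2 values of 5.11 for nipple minus TEB (SE 0.39, adjusted p = 7.89e-12) and 4.59 for duct minus TEB (SE 0.38, adjusted p = 3.73e-11, both edgeR). The UMIs expected from other wells were 140 of 679 in nipple, 61.8 of 665 in duct and 24.2 of 39 in TEB.

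For *Igfbp3* the nipple fragments had 394, 447, 518 and 596 CPM, the duct fragments 559 to 1148 (median 861) and the TEB fragments 53.6 to 244 (median 95.4). Its log2 difference was 2.98 for duct minus TEB (SE 0.28, adjusted p = 3.76e-08, edgeR) and 2.15 for nipple minus TEB (SE 0.29, adjusted p = 8.06e-06, edgeR). Between nipple and duct it was -0.83 (SE 0.29, adjusted p = 0.0974, edgeR), and it passed the threshold in 5 of 9 other settings, DESeq2 among them.

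*Igfbp6* was higher in nipple basal-like cells, where fibroblast markers were higher as well. The nipple fragments had 89.6, 99.9, 206 and 299 CPM, the duct fragments 38.1 to 86.2 and the TEB fragments 10.7 to 102, so nipple and TEB overlapped. The log2 difference was 1.58 for nipple minus duct (SE 0.42, adjusted p = 0.0169, edgeR) and 1.92 for nipple minus TEB (SE 0.42, adjusted p = 0.00112, edgeR). Other wells were expected to give 227 of the 388 nipple UMIs. The counted and expected UMIs were 53 and 48.9 in N21, 195 and 48.3 in N22, 90 and 69.3 in N23, and 50 and 60.7 in N24. Leaving out 1 nipple fragment (N22 or N23) brought the difference from duct to 1.16 or 1.48 (adjusted p = 0.167 and 0.0610, edgeR). The summed level of all 8 fibroblast markers in basal-like sums was 959.9 to 1918 CPM in nipple, 308 to 498 in duct and 264 to 505 in TEB, and their part in the *Igfbp6* and *Igfbp7* differences was not tested. The 6 pericyte markers summed to 33.8 to 109, 36.7 to 70.7 and 33.2 to 99.2 CPM, without a gap between locations.

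*Igf1r* (mean ± SD over 4 nipple, 6 duct and 6 TEB fragments) had 85.8 ± 51.2, 64.5 ± 29.0 and 48.0 ± 22.5 CPM. The groups overlapped in every pair (largest log2 difference 1.02, SE 0.49, nipple minus TEB, adjusted p = 0.155, edgeR). *Igf1* and *Igf2* had too few basal counts to test.

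The sum of the 6 *Igfbp* genes in basal-like cells (mean ± SD, same fragments) was 2090 ± 160 CPM for nipple, 3506 ± 709 for duct and 1135 ± 311 for TEB, and the 3 ranges did not overlap. The make-up of the sum also differed. *Igfbp5* made up 47.5% ± 4.20 of these UMIs in nipple, 21.7% ± 3.60 in duct and 7.35% ± 5.46 in TEB. *Igfbp4* made up 1.58% ± 1.96, 4.60% ± 1.75 and 37.5% ± 7.92, and *Igfbp2* 4.22% ± 2.40, 41.0% ± 3.50 and 37.4% ± 10.3. These shares follow from the levels above and were not tested separately.

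**Figure D3:**
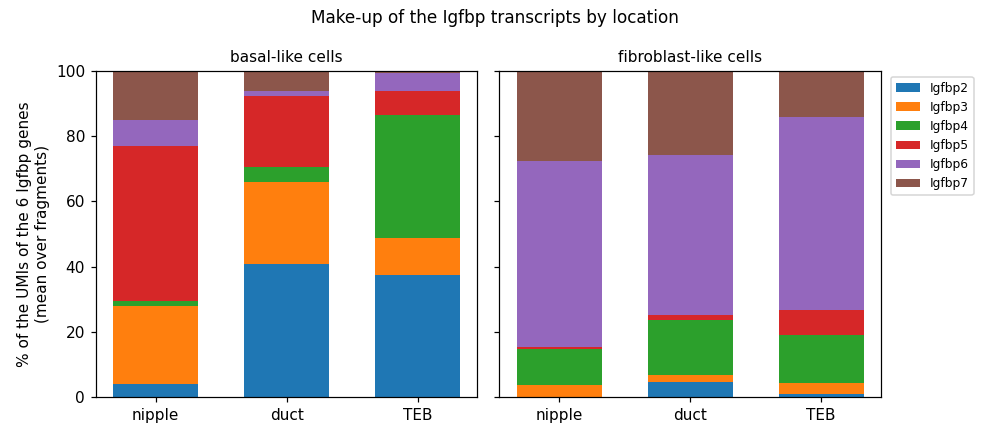
Share of each *Igfbp* gene in the UMIs of all 6 (mean over fragments, in %) in basal-like and fibroblast-like cells of nipple, duct and TEB. In basal-like cells *Igfbp5* led in nipple, *Igfbp2* in duct, and *Igfbp2* and *Igfbp4* in TEB, whereas *Igfbp6* led in fibroblast-like cells of every location.

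The promoters of the 6 genes are shown because genes of the family moved in opposite directions in the same cells. *Igfbp2* and *Igfbp5* are neighbours that point towards each other with 5457 bases between their ends, yet in basal-like cells *Igfbp2* had its lowest and *Igfbp5* its highest mean in nipple. Each line gives the stretch from 45 to 16 bases before the most upstream RefSeq start (GRCm38.p6), 5' to 3' on the strand of the gene, with the letters TATA or TTTAA (searched on both strands, with no overlap of the 2 motifs here) in capitals.
Igfbp2 (chr1:72824435-72824464, plus): aggcaggggggcggggagaagcaggctttt
Igfbp3 (chr11:7213939-7213968, minus): cgccaccccggcttcTATATAtcggcctgc
Igfbp4 (chr11:99041199-99041228, plus): tgtggccagggggccggTATAaagtcccgg
Igfbp5 (chr1:72874881-72874910, minus): aaagcgcctgctcgaccagagcccgcagtc
Igfbp6 (chr15:102144141-102144170, plus): attctcacactatctacaggttcctcatct
Igfbp7 (chr5:77408061-77408090, minus): cgggcggggcagcggcTTTAAgggttggcc
*Igfbp3* and *Igfbp4* held TATA, which 6.72% of 32851 RefSeq promoters hold in the same window, and *Igfbp7* held TTTAA, as 5.17% do. *Igfbp3* and *Igfbp4*, the genes with TATA, had opposite orders between nipple and TEB. A match is only a string of letters, and no factor was measured.

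In luminal cells few members had enough counts, and the members called in nipple had fewer UMIs than the estimate from other wells. Of the 9 members, 4 were tested in ER+ luminal-like cells. *Igfbp7* was called between nipple and TEB (1 of 4, where 5.62% of all genes were), and *Igfbp6* and *Igfbp7* between nipple and duct (2 of 4, where 1.94% were). *Igfbp7* had 38.3, 41.2, 60.7 and 83.2 CPM in nipple, 1.78 to 31.1 in duct and 1.76 to 6.31 in TEB, with log2 differences of 3.70 from TEB (SE 0.68, adjusted p = 4.92e-04) and 2.63 from duct (SE 0.64, adjusted p = 0.0215, both edgeR). The estimate from other wells was 160 UMIs against 118 counted in nipple, and 254 against 187 for *Igfbp6*. It was also above the count there for *Igfbp4* (50.7 against 10) and *Igf1* (19.8 against 1). Only for *Igf1r* was it below (8.21 against 10). The estimate thus ran high in these sums, and the source of the *Igfbp6* and *Igfbp7* UMIs was not tested. Between duct and TEB 0 of 4 were called (edgeR, 3 at an unadjusted p under 0.05, and 0 of the 1 to which DESeq2 gave an adjusted p), where 1.65% of all genes were.

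In ER- luminal-like cells 0 of 4 members tested were called in any pair (edgeR), where 4.70% (nipple and TEB), 1.61% (nipple and duct) and 1.03% (duct and TEB) of all genes were. At an unadjusted p under 0.05 it was 2, 2 and 0 of 4, and DESeq2 called 1, 1 and 0 (with 1 member given an adjusted p in the last pair). *Igfbp5* had 71.4, 76.2, 215 and 217 CPM in nipple, 64.2 to 301.2 in duct (median 135.5) and 188, 206, 208 and 234 in TEB, and the 3 locations overlapped. The low level of *Igfbp5* in TEB was thus seen in basal-like cells and not in ER- luminal-like cells of the same fragments. The class by location term tested this difference directly over 14 fragments, and it was called for *Igfbp5* (adjusted p = 2.27e-04, edgeR) and *Igfbp7* (adjusted p = 0.00128), where 2.75% of all genes were. The basal difference of nipple minus TEB exceeded that of ER- luminal-like cells by a log2 of 4.58 for *Igfbp5* (SE 0.61) and 2.94 for *Igfbp7* (SE 0.86). With ER+ luminal-like cells in their place, the term was called for *Igfbp7* (adjusted p = 8.96e-05) and *Igfbp4* (adjusted p = 0.0412, both edgeR), where 6.71% of all genes were. Only 1 of 7 members was called there when any of 7 fragments (N23, N24, D32, T32, T33, T34 or T42) was left out.

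In fibroblast-like cells 0 of 9 members were called between any locations by edgeR, where 1.54% (nipple and TEB), 0.200% (nipple and duct) and 0.271% (duct and TEB) of all genes were. The median of all genes was 0.13 and -0.12 on the log2 scale in the pairs with duct. At an unadjusted p under 0.05 it was 2, 1 and 4, and DESeq2 called 2, 1 and 1. The test had little reach there, since in simulated nipple and TEB counts over 8000 genes 22.6% of those given a log2 change of 2 were found. *Igfbp6* (mean ± SD over 4 nipple, 4 duct and 5 TEB fragments) had 3318 ± 338, 2602 ± 917 and 2934 ± 1341 CPM. *Igf1* had 191, 194, 212 and 433 CPM in nipple, 233, 290, 349 and 624 in duct, and 149 to 247 in TEB (median 185). The largest *Igf1* difference was 1.06 for duct minus TEB (SE 0.33, adjusted p = 0.191, edgeR).

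**Figure D4:**
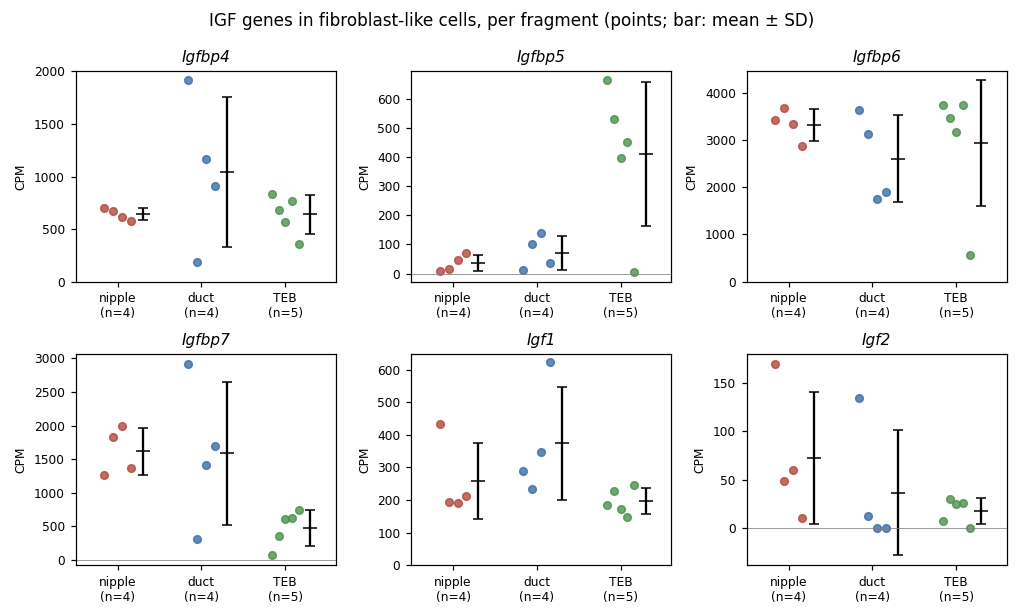
CPM of 6 IGF genes in fibroblast-like cells by location, with 1 point per fragment and the mean ± SD beside it. *Igfbp5* was at 397 to 662 CPM in 4 of 5 TEB fragments and at 5.04 in the other, which also had the lowest *Igfbp6* (572 CPM).

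*Igfbp5*, *Igfbp7* and *Igfbp2* varied widely between fragments. *Igfbp5* had 10.7, 16.6, 45.6 and 70.8 CPM in nipple, 11.2, 36.4, 101 and 140 in duct, and 5.04, 397, 452, 529 and 662 in TEB. The TEB fragments were high but for T42 (6 fibroblast-like cells). The log2 difference of nipple minus TEB was -3.43 (SE 1.05, adjusted p = 0.191, edgeR), and without T42 it was -3.74 (adjusted p = 0.00136, edgeR). *Igfbp7* had 1266, 1366, 1832 and 1994 CPM in nipple and 64.7, 359, 605, 623 and 739 in TEB, without overlap (log2 difference 1.88, SE 0.66, adjusted p = 0.294, edgeR). TEB thus had the lowest *Igfbp5* of the 3 locations in basal-like cells and, in 4 of 5 fragments, the highest in fibroblast-like cells, and the difference between these classes was not tested. *Igfbp2* had 0 to 8.74 CPM in nipple, 11.2 (1 UMI), 31.5, 247 and 677 in duct, and 0 to 73.1 in TEB. Nipple and duct did not overlap (log2 difference of nipple minus duct -5.95, SE 1.58, adjusted p = 0.195, edgeR). DESeq2 called it in that pair (adjusted p = 0.00902).

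The clusters show where these values lie. Fibroblast-like cells formed 3 clusters, and 115 of 116 nipple cells were in the largest (cluster 4, led by *Myoc*, *Penk* and *Mmp3*), while 64 of 98 TEB cells were in cluster 8 (led by *Akr1c18*, *Smpd3*, *Pi16* and *Dpp4*). *Igfbp5* had 658 CPM in cluster 8, 33.6 in cluster 4 and 7.20 in cluster 9, and at least 10 UMIs of it were counted in 58.8%, 1.88% and 0% of cells. *Igfbp7* had 1643 CPM in cluster 4, 84.8 in cluster 8 and 768 in cluster 9. Within cluster 4 it had 1663 CPM in nipple, 1637 in duct and 1472 in TEB cells (115, 29 and 16 cells), and *Igfbp5* had 23.3, 80.8 and 38.8. T42, the low fragment for *Igfbp5* and *Igfbp6*, had 4 of its 6 fibroblast-like cells in cluster 9 and 0 in cluster 8, and cluster 9 had 234 CPM of *Igfbp6* against 3068 and 4130 in clusters 4 and 8. The small cluster 9 (24 cells) also held most of the fibroblast *Igfbp2*, but 366 of its 417 UMIs came from 6 duct cells (1547 CPM), and its 18 TEB cells had 58.3 CPM, close to the 60.1 of the 16 TEB cells of cluster 4. Among the fibroblast-like clusters, *Igf2* was a cluster 4 gene (64.0 CPM, against 7.16 in cluster 8 and 0 in cluster 9), whereas *Igf1* lay between 193 and 295 CPM in all 3. Outside them, *Igf2* had 40.6 CPM in the unnamed cluster 7 (106 UMIs) and 24.6 in the pericyte-like cluster (7 UMIs). These pooled values have no replicate error.

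**Figure D5:**
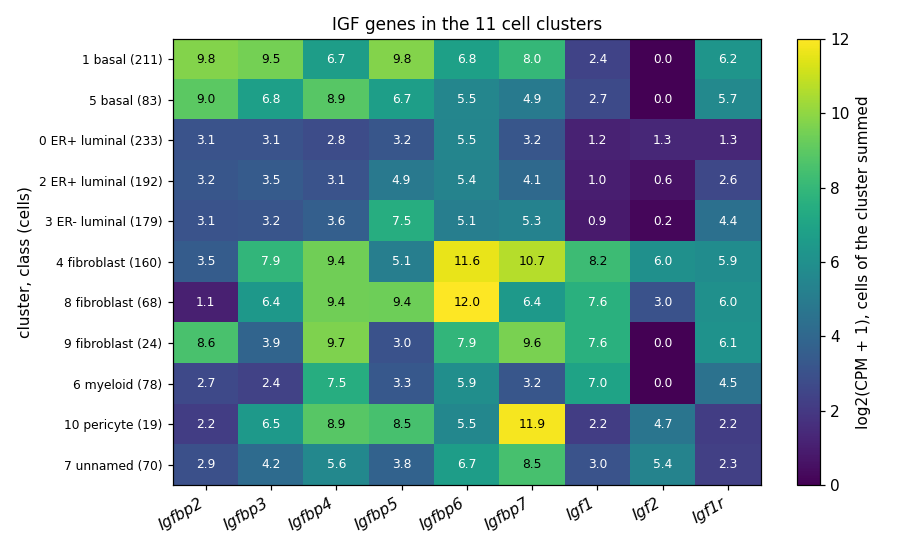
log2(CPM + 1) of each IGF gene (columns) in the summed cells of the 11 clusters (rows, with class and number of cells). *Igfbp5* was high in 1 of 3 fibroblast-like clusters, *Igfbp7* was highest in the pericyte-like cluster, and *Igf1* was seen in fibroblast-like and myeloid-like clusters.

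The rest of the pathway was described by 34 genes (other binding and carrier proteins, receptors and signalling, IGFBP proteases, the growth hormone axis and FOXO target genes). In basal-like cells 20 were tested, and 2 (nipple and TEB), 4 (nipple and duct) and 3 (duct and TEB) were called, where 18.8%, 6.33% and 10.5% of all genes were. *Igfbp1*, *Igfbpl1* and *Igfals* had too few counts in any class. *Pappa*, the protease that cleaves IGFBP4, had means of 1.41 ± 2.83 CPM (nipple), 21.7 ± 15.5 (duct) and 25.2 ± 10.1 (TEB), so like *Igfbp4* it was lowest in nipple (log2 difference of nipple minus TEB -3.82, SE 1.10, adjusted p = 0.0121, edgeR). Its nipple sums held 3 UMIs. *Htra1*, a protease that degrades IGFBP5, had 239 ± 72.8, 570 ± 120 and 204 ± 53.8 CPM, and duct was above nipple (log2 difference of nipple minus duct -1.24, SE 0.23, adjusted p = 6.58e-04) and TEB (duct minus TEB 1.64, SE 0.21, adjusted p = 3.00e-07, both edgeR).

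*Grb10*, an adaptor that dampens signalling of the IGF1 and insulin receptors, had 50.1 ± 10.2 CPM in nipple, 3.54 ± 6.64 in duct and 47.2 ± 34.5 in TEB, and its 8 duct UMIs were close in number to the 5.55 expected from other wells (duct minus TEB -3.65, SE 0.78, adjusted p = 0.00111, edgeR). *Pdk4*, a kinase of pyruvate dehydrogenase and a known FOXO target, was highest in TEB, with 11.2 ± 4.27, 41.7 ± 12.2 and 197 ± 97.3 CPM (nipple minus TEB -3.95, SE 0.49, adjusted p = 1.82e-07, edgeR). The other 16 of 20 were not called in any basal pair. In ER+ luminal-like cells 2 of 22 were called, both between nipple and TEB, where 5.62% of all genes were: *Igf2r*, which clears IGF2 (-2.27, adjusted p = 0.0229), and *Socs2*, a feedback inhibitor of growth hormone signalling (1.50, adjusted p = 0.0129, both edgeR). In ER- luminal-like cells 0 of 13 were called by edgeR in any pair, where 4.70%, 1.61% and 1.03% of all genes were. In fibroblast-like cells 1 of 23 was called between nipple and TEB (*Htra1*, 1.06, adjusted p = 0.0130, where 1.54% of all genes were) and 1 between duct and TEB (*Ghr*, the growth hormone receptor, 3.60, adjusted p = 0.0125, edgeR, where 0.271% were).

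The genes most like each member were found over 14 class by location means (log2(CPM + 1), Pearson's r, 6733 genes). The means share fragments and depth, so r is a description. *Igfbp2* was nearest to *Fam212a*, *Tagln* and *Lmo1* (r = 0.91, 0.90 and 0.90), *Igfbp3* to *Myl9*, *Col4a1* and *Cacna2d1* (0.95, 0.94 and 0.92), *Igfbp4* to *Lrp1*, *Tspan5* and *Ckb* (0.93, 0.93 and 0.92) and *Igfbp5* to *Palld*, *Efna5* and *Nudt4* (0.91, 0.90 and 0.88). *Igfbp6* was nearest to *Col5a1*, *Rarres2* and *Serping1* (0.99, 0.99 and 0.98) and *Igfbp7* to *Csf1*, *Postn* and *Bgn* (0.96, 0.95 and 0.94). *Igf1* was nearest to *Tmem119*, *Mndal* and *Nrp1* (0.98, 0.96 and 0.96), *Igf2* to *Itgbl1*, *Svep1* and *Emilin1* (0.98, 0.98 and 0.97) and *Igf1r* to *Nop58*, *Nfatc2* and *Dido1* (0.92, 0.90 and 0.90).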

How the data were processed

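The deposited values are raw UMI counts per gene and cell, which the authors made from reads trimmed with Trim Galore, mapped by STAR (mm10) and assigned by featureCounts, with UMI-tools for barcodes and UMIs (versions not given in the sources used here, nor whether the counting used strand). The 16 fragments were grouped by their labelled tissue source. Cells with at most 5% ERCC spike-in RNA, 5000 to 120000 UMIs and 200 to 6000 genes were kept, and doublets were not called. Clusters came from Seurat 5.3.0 (R 4.3.3), with 2000 variable genes that held none of the IGF pathway, 14 principal components and a resolution of 0.5, and were named from marker lists. Counts were summed per fragment and class and tested with the quasi-likelihood test of edgeR 4.0.16 (TMM, filterByExpr, robust fit, all locations in 1 model). DESeq2 1.42.0 was an alternative. Class tests used all classes with the fragment as a block. Class sums held 89639 to 2061534 UMIs, and intervals and limits cover counting error only. The RNA a class took from other wells was estimated in each fragment from markers of other classes. It was their median summed share over the cells of the class, divided by their share in the pooled cells of the fragment. Scripts were tested on simulated data. In simulated basal nipple and TEB counts (6836 genes), 50.5% of log2 changes of 2 were recovered, and 4.48% of calls were false. All 9 genes were named throughout, pathway genes where called, and the 3 nearest genes of each member with at least 50 CPM in a group. The genes and lists were chosen with earlier results of these data known. Gene positions are from GENCODE M21 (GRCm38), promoters from RefSeq (GRCm38.p6).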

Additional observations from a re-analysis of the deposited data

Results flagged for a closer look

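In 16 of 92 groups of 4 to 6 fragments, 1 fragment stood apart from the others by Dixon's test on CPM. That test flags about 1 of 20 groups where values are normally distributed. Several groups held few UMIs, so the rates cannot be compared. In basal-like cells, *Igfbp2* reached 2125 CPM in duct D61 (next 1495), *Igfbp4* 88.6 CPM in nipple N21 (next 13.8) and *Igfbp7* 25.1 CPM in TEB T43 (next 9.92), and *Igf1r* was 6.11 CPM in TEB T31 (3 UMIs, next 46.3). Most of the *Igfbp4* UMIs of N21 lay in 1 cell. In fibroblast-like cells, *Igfbp6* was 572 CPM in TEB T42 (next 3159), *Igf1* 433 CPM in nipple N21 (next 212) and *Igf2* 134 CPM in duct D32 (12 UMIs, next 12.6). In ER+ luminal-like cells the values were 29.5 CPM of *Igfbp3* in nipple N23, 15.5 of *Igfbp4* in TEB T43, 36.8 of *Igfbp5* in nipple N21, 37.2 of *Igfbp5* in TEB T42, 31.1 of *Igfbp7* in duct D32 and 7.33 of *Igf2* in duct D31, and in ER- luminal-like cells 52.4 of *Igfbp7* in duct D62. In myeloid-like cells, *Igfbp6* was 126 CPM and *Igf1* 222 CPM in TEB T31 and T43, respectively.

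Effects of location differed between classes for 4 pairs of gene and class by the class by location term of edgeR. With basal-like and ER- luminal-like cells these were *Igfbp5* (adjusted p = 2.27e-04) and *Igfbp7* (adjusted p = 0.00128). With ER+ luminal-like cells in place of ER-, they were *Igfbp7* (adjusted p = 8.96e-05) and *Igfbp4* (adjusted p = 0.0412).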

How the results depend on the processing

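No member called between locations changed its direction under any alternative run, whereas some that were not called did (*Igfbp6* in basal-like cells, duct minus TEB, from -0.51 to 0.45 on the log2 scale, and *Igf1r* there from -0.20 to 0.84). The counts of members called stayed within 1.5 times the reported count in 108 of 123 comparisons between locations, 29 of 32 between classes and 11 of 14 class by location terms. All 150 refits in which a member called between locations was still tested passed the threshold again. Runs in which such a member was no longer tested are not among the 150. With DESeq2, 1 member was called in ER- luminal-like cells for nipple and TEB and 1 for nipple and duct, and in fibroblast-like cells 2 (nipple and TEB), 1 (nipple and duct) and 1 (duct and TEB), against 0 in edgeR. With cells thinned to 5000 UMIs, ER+ luminal-like cells had 0 (nipple and TEB) and 1 (nipple and duct), and fibroblast-like cells 1 for nipple and TEB and 1 for duct and TEB. There, 5 members differed for basal against ER+, 1 for ER+ against ER-, and the class by location term had 0 with ER+ and 1 with ER- cells. Thinning leaves fewer counts. With at least 10 cells per sum, 1 was called in ER- cells (nipple and duct), 1, 2 and 2 in fibroblast-like cells (nipple and TEB, nipple and duct, duct and TEB), and 1 for the term with ER+ cells. With no filter on low counts 4 differed between the luminal classes. Leaving out genes for which other wells were expected to give over 20% of counts, 0 were called in ER+ cells for nipple against TEB and 0 against duct. Without regression before clustering, basal-like cells of nipple could not be compared.

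With each fragment left out in turn, counts ranged from 1 to 2 in ER+ cells for nipple and duct, 0 to 2 for duct and TEB (2 without T42), 0 to 1 in ER- cells for nipple and TEB (1 without T33) and for nipple and duct (1 without D62), 0 to 1 in fibroblast-like cells for nipple and TEB and for duct and TEB (*Igfbp5*, without T42), and 1 to 2 for the class by location term with ER+ cells. *Igfbp7* in ER+ cells missed the threshold between nipple and duct without N21, N23, D31, D52 or D62, and *Igfbp6* in basal-like cells without N22 or N23. The cause was not tested. Duct and TEB share only the label numbers 31 and 32, whose meaning is not given, and with the number as a replicate block 5 members were called in basal-like cells (*Igfbp4* besides the 4) and 0 in ER+ cells. Depth and number of fragments limit the test, and in simulated counts log2 changes of 2 were recovered for 39.1% of genes in ER- and 22.6% in fibroblast-like cells.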
